A study of Homo sapiens with 9 samples.

Results

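The genes described here are 50 histone and DNA methylation regulators: the subunits of the polycomb complexes, the DNA methyltransferases and TET oxidases, histone demethylases and methyltransferases, deacetylases and acetyltransferases. Their RNA levels were read on 9 Affymetrix HG-U133 Plus 2 arrays in an Ewing sarcoma cell line and in lines made resistant to agents against the IGF-1 receptor. A gene was represented by its brightest single-symbol probe set, judged by the mean of the 9 arrays. By this rule 47 of the 50 listed genes were tested, among 14181 genes in all, and all 47 passed the filter on low values, which asked for a log2 level of 5 on at least 2 arrays. BMI1 was read only by a probe set shared with COMMD3-BMI1, and RNF2 and CBX8 were not analysed here. Levels are log2 values, and TC-71 levels are means ± SD over 3 samples.

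All groups were cells of TC-71, an Ewing sarcoma line, or were derived from it, grown in Iscove medium with 10% serum. TC/AEW had been selected for resistance to the receptor kinase inhibitor NVP-AEW541, with up to 5 µM. TC/AVE had been selected with up to 10 µg/ml of AVE1642, an antibody against the receptor. TC/CP had been selected with another such antibody, figitumumab. Selection lasted 6 months for each line. The reference was TC-71 with no such resistance, measured in 3 samples with 1 array each, while each line had 2 technical replicate arrays that were averaged into 1 sample. The labels name no TC-71 kept alongside during selection, so resistance and months of culture cannot be told apart. Each line is a single selection, and the p-values cover variation among these samples alone. The study's design text calls the TC-71 samples biological replicates. They also lie in different array sets (below), so part of their spread may be technical.

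These proteins write, remove and read the chemical marks that set which genes stay silent. Polycomb repressive complex 2 (PRC2) methylates lysine 27 of histone H3 and polycomb repressive complex 1 (PRC1) ubiquitinates histone H2A. DNA methyltransferases add methyl groups to cytosines in CG dinucleotides and the TET enzymes oxidise them. Demethylases and deacetylases remove histone methyl and acetyl groups that methyltransferases and acetyltransferases place. In Ewing sarcoma, EZH2 is known as a target of the EWS-FLI1 fusion and EWS-FLI1 is known to work through KDM1A and deacetylase complexes at genes it represses.

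DNMT3A and DNMT3B, the enzymes that place new DNA methylation, and CBX7, a PRC1 subunit, were picked out by unadjusted p alone. With the resistant lines set against TC-71 as a group, only these of the 47 tested regulators had an unadjusted p under 0.05 (limma). That is 6.38% of the regulators, against 8.37% of all genes, so their number did not exceed the background. None passed after adjustment (below). CG dinucleotides are the substrate of DNMT3A and DNMT3B. The 250 bases before a listed start of each of the 3 genes are therefore shown, with CG in capitals, from RefSeq on GRCh38.p14. A window was given for 47 of the 50 listed genes. Where a gene had several starts, as DNMT3A with 6, the window with the most CG is shown.
DNMT3A, chr2:25341926-25342175, minus strand: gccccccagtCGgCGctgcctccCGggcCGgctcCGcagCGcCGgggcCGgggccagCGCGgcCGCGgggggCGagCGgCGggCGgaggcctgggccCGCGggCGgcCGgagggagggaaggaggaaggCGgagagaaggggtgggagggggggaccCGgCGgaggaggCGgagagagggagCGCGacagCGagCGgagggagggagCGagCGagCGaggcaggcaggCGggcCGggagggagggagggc
DNMT3B, chr20:32779602-32779851, plus strand: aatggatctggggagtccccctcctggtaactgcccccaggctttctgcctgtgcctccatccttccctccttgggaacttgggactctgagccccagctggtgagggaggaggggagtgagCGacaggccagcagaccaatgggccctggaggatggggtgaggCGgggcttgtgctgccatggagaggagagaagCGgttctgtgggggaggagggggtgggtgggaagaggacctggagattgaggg
CBX7, chr22:39152681-39152930, minus strand: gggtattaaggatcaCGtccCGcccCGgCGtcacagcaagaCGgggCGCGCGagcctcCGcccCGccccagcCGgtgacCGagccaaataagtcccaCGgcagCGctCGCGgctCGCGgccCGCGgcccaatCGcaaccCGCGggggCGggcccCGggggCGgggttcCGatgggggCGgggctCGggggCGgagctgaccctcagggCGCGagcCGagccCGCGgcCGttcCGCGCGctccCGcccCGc
The shares below are over the window richest in CG of each of 27305 genes, since that is the one shown. The DNMT3A window holds 33 CG, and 9.7% of genes have at least as many. The CBX7 window holds 41, which 2.1% reach. The only window given for DNMT3B holds 3, and 28.3% of genes have at most as many, against a median of 12. CBX7 also had 1 window. Other starts of either gene, if any, were not read, so these counts may not hold for them. These counts describe the sequence, and no methylation was measured.

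The median of each array lay between 5.39 and 5.45. Over genes, the 2 arrays of a line correlated at 0.996 to 0.998 and the TC-71 samples among themselves at 0.962 to 0.983. By the year in the array file names in the labels, the arrays fell into 3 sets: TC-71 sample 1 alone, then TC/AEW and TC/AVE with TC-71 sample 2, then TC/CP with TC-71 sample 3. The 8 Ewing sarcoma markers found averaged 9.35 to 9.66 in the lines and 9.45 to 9.81 in TC-71. Blood markers averaged 4.71 to 4.85 in the lines and 4.72 to 4.89 in TC-71, with 2 of 6 reaching 5. One of these was HBB, which read up to 6.13 in the lines and 6.02 in TC-71, so background may reach above 5. Fibroblast markers averaged 6.48 to 7.41 in the lines and 6.05 to 6.66 in TC-71, and their part in the results below was not tested.

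The 3 resistant lines were first set against TC-71 together, to ask which regulators differed whatever the agent. No member passed the threshold of 0.05 on the adjusted p (limma, Benjamini-Hochberg over all genes), and 3 of 14181 genes did (0.0212%). CBX7 was the nearest, at adjusted p = 0.227. At an unadjusted p under 0.05 there were 3 members, CBX7, DNMT3A and DNMT3B, against 8.37% of all genes, a share that 3 of 47 does not exceed. Of the 47 members 29 had a lower mean in the lines, against 50.9% of all genes, and the median difference was -0.11 (all genes -0.01). No member differed 2-fold, against 1.59% of all genes. All 6 line arrays lay outside the TC-71 samples for 4 members: below for DNMT3A, DNMT3B and HDAC2 (4.27% of all genes), and above for CBX7 (5.11% of all genes). Over all genes the share in either direction was 9.38%, so 4 of 47 was near the background. Counts without 1 TC-71 sample, here and below, were added after seeing the data. The count below became 7 without TC-71 sample 1 (14.9%, against 7.62% of all genes) and 8 without sample 2 (17%, against 11.1%). The count above became 2 without sample 2 (11.6% of all genes) and 4 without sample 3 (9.38%).

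**Figure D1:**
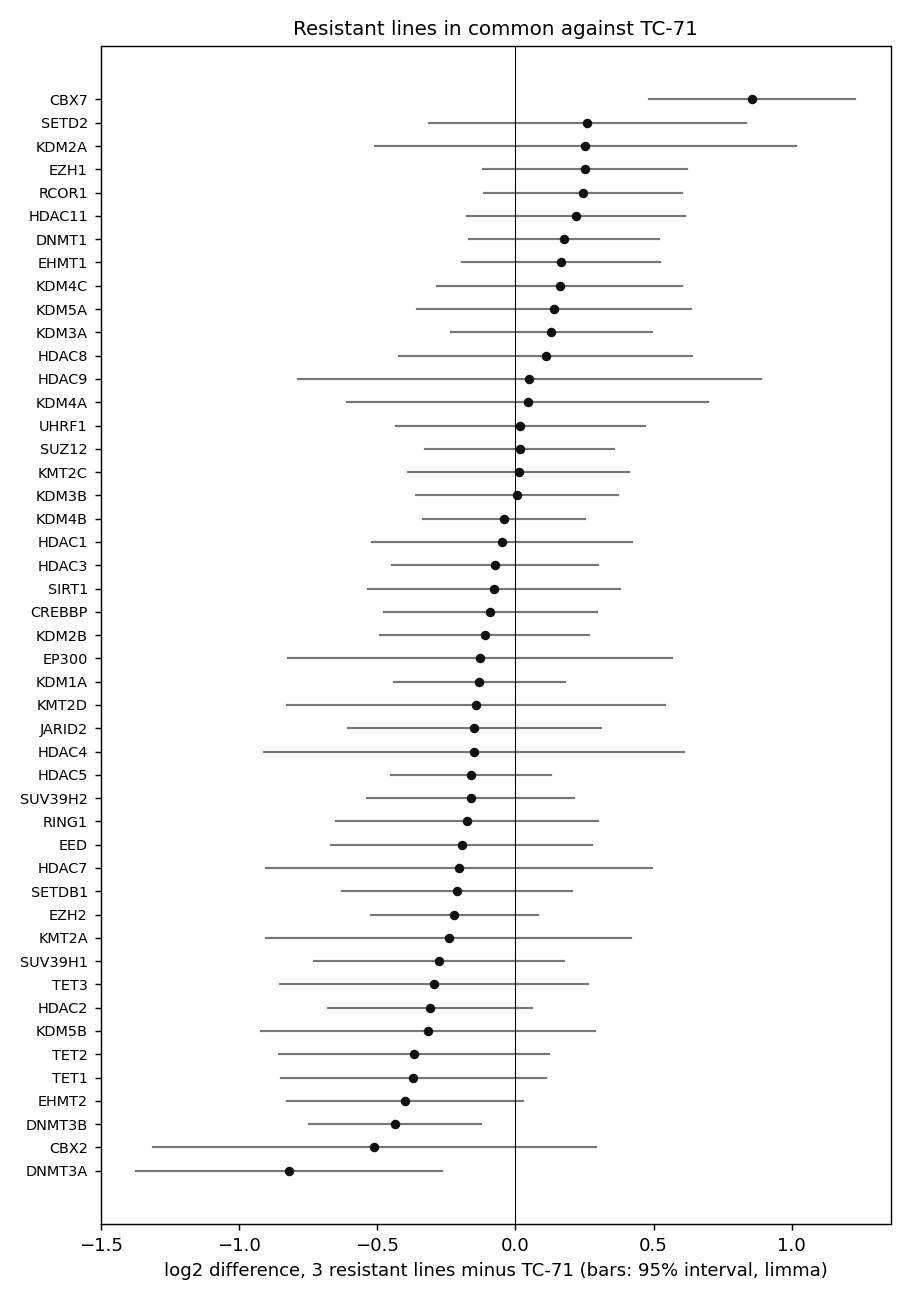
Log2 difference of the 3 resistant lines from TC-71 (horizontal axis, lines minus TC-71) for each of 47 regulators, sorted from the highest at the top, with bars giving the 95% interval of the limma fit. The intervals of CBX7 (0.48 to 1.23), DNMT3A (-1.37 to -0.27) and DNMT3B (-0.75 to -0.12) leave out 0 before adjustment, and none passed after it.

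Among the DNA methylation writers, DNMT3A was the member with the lowest difference. DNMT3A read 7.77 and 7.98 in TC/AEW, 7.22 and 7.16 in TC/AVE, and 8.10 and 8.05 in TC/CP, against 8.53, 8.43 and 8.64 in the TC-71 samples. Every line array lay below every TC-71 sample, TC/AVE furthest. The difference was -0.82 ± 0.23 (SE, 1.77-fold lower, adjusted p = 0.411) in the lines in common. In TC/AVE alone it was -1.34 ± 0.22 (2.53-fold lower, adjusted p = 0.313), the lowest adjusted p of any member in that line. The 3 kept probe sets of DNMT3A were all lower in the lines in common, at -0.82, -0.62 and -0.17. Only on the first did every line array lie below TC-71. The TC/AVE arrays lay below it on all 3. In these bulk RNA samples, lower RNA in some cells and lower RNA in every cell cannot be told apart.

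DNMT3B, the second de novo methyltransferase, read 7.49 and 7.59 in TC/AEW, 7.23 and 7.33 in TC/AVE, and 7.59 and 7.55 in TC/CP. The TC-71 samples read 7.94, 7.85 and 7.90, so the groups did not overlap. Its difference was -0.43 ± 0.13 (1.35-fold lower, adjusted p = 0.441), again with TC/AVE lowest. DNMT3B had 1 kept probe set, so no second reading was to be had. DNMT1, which copies methylation at replication, lay at 11.24 in TC/AEW, 11.41 in TC/AVE and 11.37 in TC/CP, and at 11.16 ± 0.20 in TC-71, a difference of 0.18 ± 0.15 (adjusted p = 0.810). UHRF1, which guides DNMT1 to half-methylated DNA, differed by 0.02 ± 0.19 (adjusted p = 0.984), and its sign turned with centring of the arrays.

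**Figure D2:**
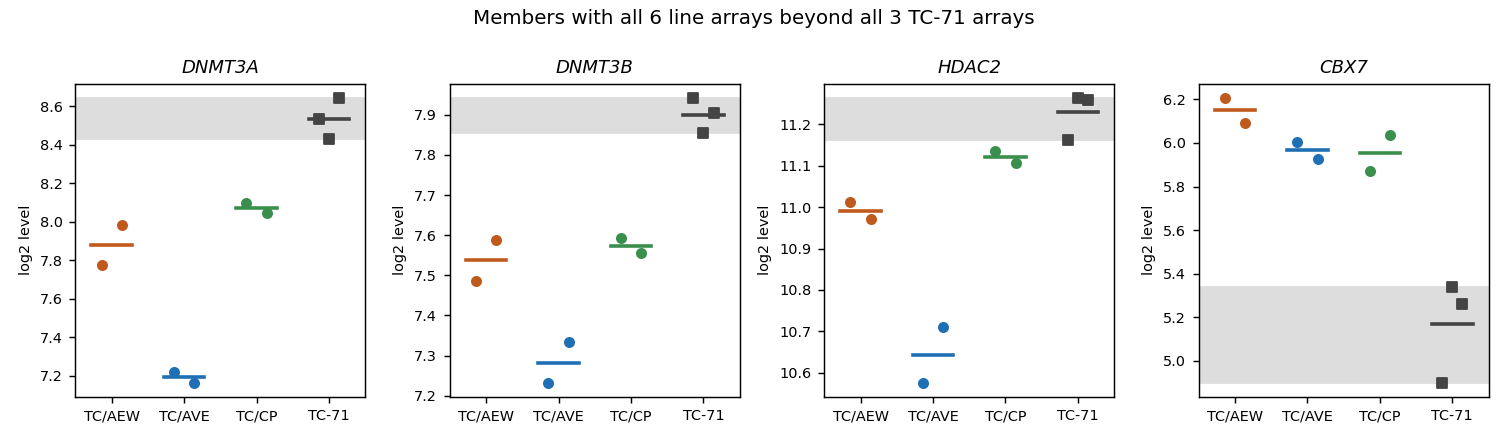
Log2 level (vertical axis, a range of its own in each panel) of DNMT3A, DNMT3B, HDAC2 and CBX7 on every array, with circles for line arrays, squares for TC-71 samples, short lines for group means and grey bands for the TC-71 range. All line arrays lie below the band for DNMT3A, DNMT3B and HDAC2, with TC/AVE lowest at means of 7.19, 7.28 and 10.64, and above it for CBX7, where TC/AEW is highest at 6.15.

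The TET oxidases start the removal of DNA methylation, and all 3 had a lower mean in the lines. TET1 read 8.52 and 8.55 in TC/AEW, 8.17 and 8.16 in TC/AVE, and 8.57 and 8.56 in TC/CP, against 8.46, 9.10 and 8.81 in the TC-71 samples. TC/AVE alone lay below TC-71, and TC-71 sample 1 was lower than TC/AEW and TC/CP. TET2 read 7.42 and 7.50 in TC/AEW, 7.26 and 7.28 in TC/AVE, and 7.84 and 7.77 in TC/CP, against 7.56, 7.94 and 8.14 in TC-71. TET3 read 8.55 and 8.66, 8.38 and 8.28, and 8.90 and 8.88 in the same lines, against 8.45, 9.09 and 9.17 in TC-71. On these probe sets TC-71 sample 1 was well below the other TC-71 samples for each of the 3 genes. On the other kept probe sets of TET1 and TET3, sample 1 was not the lowest. The differences in common were -0.37 ± 0.20 for TET1, -0.37 ± 0.21 for TET2 and -0.30 ± 0.24 for TET3 (adjusted p = 0.698, 0.707 and 0.807). In TC/AVE both arrays lay below all TC-71 samples for all 3, at -0.63, -0.61 and -0.57, none past the threshold. A second TET1 probe set, prone to cross-hybridisation by its suffix, was lower too, at -1.43 in TC/AVE. The second TET2 probe set, near the filter level, differed by 0.04 in the lines in common.

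**Figure D3:**
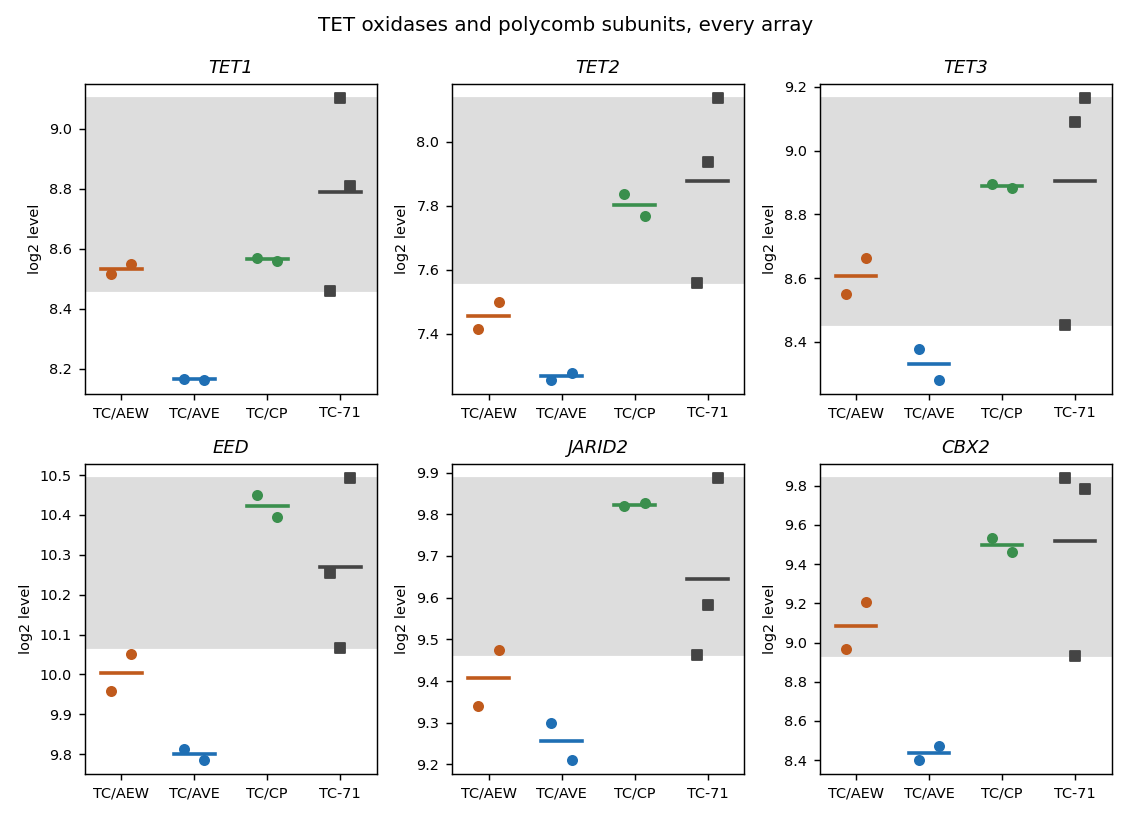
Log2 level (vertical axis, a range of its own in each panel) of TET1, TET2, TET3, EED, JARID2 and CBX2 on every array, with circles for line arrays, squares for TC-71 samples, short lines for means and grey bands for the TC-71 range. In all 6 panels both TC/AVE arrays lie below the band, and in every panel the TC/CP arrays lie inside it.

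Among the PRC2 subunits no member passed the threshold, and 3 of 5 had a lower mean in the lines, with a median of -0.15. EZH2, the catalytic subunit, read 9.70 on both TC/AEW arrays, 9.52 and 9.61 in TC/AVE, and 9.80 and 9.74 in TC/CP, against 9.93, 9.78 and 9.99 in TC-71. TC/AEW and TC/AVE lay below TC-71, while TC/CP overlapped its lowest sample. The difference was -0.22 ± 0.13 (adjusted p = 0.720), with a 95% interval of -0.52 to 0.08. EED, which binds the methylated histone tail, read 9.96 and 10.05 in TC/AEW, 9.81 and 9.79 in TC/AVE, and 10.45 and 10.40 in TC/CP, against 10.25, 10.07 and 10.49 in TC-71. It was thus below TC-71 in TC/AEW and TC/AVE only, and its difference in common was -0.20 ± 0.20 (adjusted p = 0.836).

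EZH1, the paralog of EZH2, read 7.40 and 7.51 in TC/AEW, 7.56 and 7.44 in TC/AVE, and 7.24 and 7.38 in TC/CP, against 7.17 ± 0.23 in TC-71, a difference of 0.25 ± 0.16 (adjusted p = 0.745). All 4 kept probe sets of EZH1 were higher in the lines in common. SUZ12, a core subunit, differed by 0.02 ± 0.15 and JARID2, which helps recruit the complex, by -0.15 ± 0.19 (adjusted p = 0.982 and 0.868). The other kept probe set of JARID2 differed by 0.03. The sign of SUZ12 turned when the arrays were centred on their medians.

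In PRC1, CBX7 had the highest difference of the members in the lines in common and CBX2 the second lowest. CBX7, a chromodomain subunit that reads methylated lysine 27, read 6.21 and 6.09 in TC/AEW, 6.01 and 5.93 in TC/AVE, and 5.87 and 6.04 in TC/CP. The TC-71 samples read 4.90, 5.34 and 5.26, so every line array was above every TC-71 sample. The difference was 0.86 ± 0.16 (adjusted p = 0.227), with 0.98 in TC/AEW, 0.80 in TC/AVE and 0.79 in TC/CP singly. These levels are close to background, so the difference may understate the change and no fold is given. CBX7 had 1 kept probe set.

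CBX2, another chromodomain subunit, read 8.97 and 9.21 in TC/AEW, 8.40 and 8.47 in TC/AVE, and 9.53 and 9.46 in TC/CP, against 9.84, 8.93 and 9.78 in TC-71. TC/AVE alone lay below TC-71, and TC-71 sample 2 lay below the other TC-71 samples by more than the lines' array gaps. The difference in common was -0.51 ± 0.34 (adjusted p = 0.768). In TC/AVE it was -1.08 ± 0.42 (2.12-fold lower, adjusted p = 0.699). Of the 4 kept CBX2 probe sets 3 were lower and 1, dim, was higher by 0.40 in the lines in common. RING1, a ubiquitin ligase subunit, averaged 9.82 in TC/AEW, 9.58 in TC/AVE, 10.27 in TC/CP and 10.06 ± 0.17 in TC-71, a difference of -0.18 ± 0.20 (adjusted p = 0.853). The probe set shared by BMI1, another core PRC1 subunit, and COMMD3-BMI1 lay at 10.96, 10.85 and 11.07 in the lines and 10.91 ± 0.27 in TC-71 (adjusted p = 0.981).

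Of the 10 histone demethylases 4 had a lower and 6 a higher mean in the lines in common, with a median of 0.03, and none passed. KDM1A, which removes methyl groups from lysine 4 of histone H3, read 10.74 and 10.80 in TC/AEW, 10.51 and 10.55 in TC/AVE, and 10.85 and 10.80 in TC/CP, against 10.80, 10.85 and 10.86 in TC-71. Its TC-71 samples were within 0.06 of one another, and the difference in common was -0.13 ± 0.13 (adjusted p = 0.831). KDM5B, a lysine 4 demethylase, read 8.92 and 9.05 in TC/AEW, 8.19 and 8.25 in TC/AVE, and 8.24 and 8.18 in TC/CP, against 8.56, 9.11 and 8.69 in TC-71. The arrays of both antibody-selected lines lay below TC-71 while TC/AEW lay within it. KDM2A, which acts on lysine 36, varied as much within TC-71 (8.15, 8.40 and 9.22) as between groups, and differed by 0.25 ± 0.32 (adjusted p = 0.867). Its other 2 probe sets were lower in the lines in common, at -0.13 and -0.34, so its direction depended on the probe set. The remaining 7 demethylases, KDM2B, KDM3A, KDM3B, KDM4A, KDM4B, KDM4C and KDM5A, lay between -0.11 and 0.16, and the signs of KDM3B and KDM4A turned with the scaling.

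Among the lysine 4 and lysine 36 methyltransferases, 2 of 4 had a lower mean. KMT2A, which methylates lysine 4, read 8.37 and 8.32 in TC/AEW, 7.99 and 8.05 in TC/AVE, and 9.02 and 8.98 in TC/CP, against 8.69, 8.39 and 9.01 in TC-71 (difference -0.24 ± 0.28, adjusted p = 0.854). Its 9 kept probe sets were lower in TC/AVE without exception, and 8 of them were lower in the lines in common. KMT2D averaged 8.28, 8.69 and 9.25 in the same lines, against 8.88 ± 0.38 in TC-71, and KMT2C differed by 0.01 ± 0.17 with a sign that turned with the scaling. SETD2, which places trimethylation on lysine 36, had the second highest difference among members, 0.26 ± 0.24 (adjusted p = 0.825), with TC-71 samples from 7.88 to 8.70.

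Of the 5 methyltransferases of lysine 9, 4 had a lower mean, with a median of -0.21. EHMT2 (G9a), which places the dimethyl mark, read 9.01 and 9.10 in TC/AEW, 9.29 and 9.20 in TC/AVE, and 9.32 and 9.35 in TC/CP, against 9.91, 9.32 and 9.60 in TC-71. TC-71 sample 2 lay at the level of TC/CP, and the difference was -0.40 ± 0.18 (1.32-fold lower, adjusted p = 0.623). SUV39H1 and SUV39H2, which place trimethylation in heterochromatin, differed by -0.28 ± 0.19 and -0.16 ± 0.16. SETDB1, which silences repeats, averaged 7.39 in TC/AEW, 7.33 in TC/AVE, 7.85 in TC/CP and 7.73 ± 0.13 in TC-71. EHMT1, the partner of EHMT2, had a difference of 0.17 ± 0.15 (adjusted p = 0.825), but its other 2 kept probe sets were lower, at -0.03 and -0.24, so its direction depended on the probe set.

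HDAC2, a class I deacetylase, was the one member of its group with all line arrays outside TC-71. It read 11.01 and 10.97 in TC/AEW, 10.58 and 10.71 in TC/AVE, and 11.14 and 11.11 in TC/CP, against 11.16, 11.26 and 11.26 in TC-71. TC/CP lay just below the lowest TC-71 sample, and TC/AVE lay furthest from it. The difference was -0.31 ± 0.16 (1.24-fold lower, adjusted p = 0.662), and -0.58 ± 0.21 in TC/AVE (adjusted p = 0.654). The other kept HDAC2 probe set was lower too, at -0.22 in the lines in common and -0.17 in TC/AVE, but its line arrays overlapped TC-71. HDAC1, the paralog of HDAC2, read 11.27 and 11.35 in TC/AEW, 11.24 and 11.25 in TC/AVE, and 11.92 and 11.93 in TC/CP. In TC-71 it read 11.48, 11.53 and 11.61. It was thus below TC-71 in 2 lines and above it in TC/CP, and the lines in common differed by -0.05 ± 0.20 (adjusted p = 0.958).

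The largest spreads within TC-71 were also in this group: HDAC9 from 8.57 to 9.93, HDAC7 from 6.12 to 7.29 and HDAC4 from 6.18 to 7.35. The sign of HDAC9 in the lines in common turned with the scaling. HDAC3, HDAC5, HDAC8 and SIRT1, a NAD-dependent deacetylase, differed by -0.16 to 0.11 in the lines in common. HDAC11 differed by 0.22 ± 0.17 and RCOR1, the co-repressor that binds KDM1A, by 0.24 ± 0.15 (adjusted p = 0.798 and 0.744). The second HDAC11 probe set was lower, at -0.25. Of the acetyltransferases, EP300 read 7.42 and 7.18 in TC/AEW, 7.55 and 7.64 in TC/AVE, and 8.35 and 8.27 in TC/CP, against 7.90, 7.49 and 8.20 in TC-71. On this probe set TC/AEW lay below and TC/CP above the TC-71 samples. The other kept EP300 probe set read 6.84 and 6.75 in TC/AEW and 7.29 and 7.17 in TC/CP. TC-71 read 7.29, 6.55 and 7.05 on it, so both lines overlapped TC-71 there. The difference of EP300 in common was -0.13 ± 0.29, and that of the related CREBBP was -0.09 ± 0.16, with adjusted p = 0.921 for EP300. Another kept CREBBP probe set was at -0.53 in common, and the remaining one at -0.14. On the former, both arrays of TC/AEW (-0.73) and of TC/AVE (-0.61) lay below all TC-71 samples. In TC/CP it was at -0.26, against 0.17 on the brightest probe set, so the size of the CREBBP difference depended on the probe set.

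The lines were then compared with TC-71 one at a time, with the spread estimated over the 3 samples of TC-71 and each line, read once, assumed to vary as much. No member passed in any line, and neither did any of the 14181 genes (0% in each line). Unadjusted p-values under 0.05 were seen for 2 members in TC/AEW, 4 in TC/AVE and 1 in TC/CP, against 3.54%, 7.18% and 4.98% of all genes. These were CBX7 in each line, DNMT3A in TC/AEW and TC/AVE, and DNMT3B and HDAC2 in TC/AVE. At least 2-fold differences were found in TC/AVE, for DNMT3A and CBX2, against 3.72% of all genes there, and in no member of TC/AEW or TC/CP, against 2.24% and 3.22%.

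In TC/AEW 32 of 47 members had a lower mean than TC-71 (49.7% of all genes), with a median of -0.21. Both arrays lay below all TC-71 samples for 16 members (34%, against 14.3% of all genes) and above for 4 (8.51%, against 15.3%). Without TC-71 sample 1 the count below became 25 (21.9% of all genes), and without sample 3 the count above became 8 (21.8%). Over every kept probe set of the members, 27 of 114 lay below (23.7%, against 14.4% of all kept probe sets). By that count 9 lay above (7.89%, against 14.4%). The 16 included EZH2, EED, RING1, DNMT3A, DNMT3B, TET2, KDM1A, 3 of the 5 lysine 9 methyltransferases (SETDB1, EHMT2 and SUV39H2), HDAC1, HDAC2 and EP300. Of the 16, TET2, EHMT2 and HDAC4 each had another kept probe set that was higher in TC/AEW, and KMT2A had 5 of 9. In HDAC4 both TC/AEW arrays of that probe set lay above all TC-71 samples, at 0.29. The other EP300 probe set was lower, at -0.17, but its TC/AEW arrays overlapped TC-71. The lowest differences after DNMT3A (-0.66 ± 0.22) were KMT2D (-0.60 ± 0.34), EP300 (-0.56 ± 0.33), EHMT2 (-0.56 ± 0.30) and HDAC4 (-0.55 ± 0.48). The 4 above were CBX7, KDM3A, KDM4A and HDAC11, with KDM4A at 0.53 ± 0.33. The other kept KDM4A probe set differed by 0.01 in TC/AEW, and its arrays lay within the TC-71 range. The second HDAC11 probe set was lower in TC/AEW, at -0.15. HDAC8, at 0.34 ± 0.35, was among the 5 highest but its arrays overlapped TC-71.

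In TC/AVE 32 of 47 members were lower as well (52.6% of all genes), with a median of -0.20. Both arrays lay below all TC-71 samples for 21 members (44.7%, against 19.7% of all genes) and above for 6 (12.8%, against 19.6%). Without TC-71 sample 3 the count above became 13 (27.7%, against 25.5% of all genes). Over every kept probe set of the members, 37 of 114 lay below (32.5%, against 18.3% of all kept probe sets). By that count 22 lay above (19.3%, against 20.2%), near the background. The 21 held EZH2, EED, JARID2, RING1 and CBX2 of the polycomb complexes, both de novo methyltransferases, all 3 TET oxidases, KDM1A, KDM5B, KMT2A, SETDB1, EHMT2, SUV39H2 and HDAC1, HDAC2, HDAC3, HDAC5 and SIRT1. KMT2A had a difference of -0.68 ± 0.30. Of these 21, JARID2 (0.09), TET2 (0.11), SETDB1 (0.05), EHMT2 (0.22), CBX2 (0.46) and HDAC5 (0.33) each had another kept probe set that was higher in TC/AVE. In CBX2 and HDAC5 both TC/AVE arrays of that probe set lay above all TC-71 samples. The 6 above were EZH1, CBX7, KDM4C (0.45 ± 0.24), KMT2C, HDAC11 and RCOR1 (0.43 ± 0.24). The second HDAC11 probe set was lower in TC/AVE, at -0.14.

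On the brightest probe set of each gene TC/CP differed in direction: 18 members were lower and 29 higher (50.3% of all genes lower), with a median of 0.10. With the mean over all kept probe sets of a gene that median was -0.0458. Both arrays lay below all TC-71 samples for 7 members (14.9%, against 17% of all genes) and above for 6 (12.8%, against 21.1%). Without TC-71 sample 3, the count above became 21 (44.7%, against 28.2% of all genes). The count below became 14 without sample 1 (29.8%, against 24.8%) and 11 without sample 2 (23.4%, against 28.1%). Over every kept probe set of the members rather than 1 a gene, both TC/CP arrays lay below TC-71 for 28 of 114 (24.6%, against 17.5% of all kept probe sets). By that count 9 lay above (7.89%, against 19.4%). Whether the members' share below lay over or under the background in TC/CP thus depended on the sample left out and on the probe sets counted. The 7 were DNMT3A, DNMT3B, KDM4A, KDM4B, KDM5B, HDAC2 and HDAC5, and the 6 were RING1, CBX7, KDM3A, SETD2, HDAC1 and EP300. The other EP300 probe set was higher, at 0.27, but its TC/CP arrays overlapped TC-71. SETD2 (0.56 ± 0.36), KDM2A (0.49 ± 0.45), EP300 (0.44 ± 0.33) and HDAC1 (0.39 ± 0.21) had the highest differences after CBX7. Another kept SETD2 probe set had both TC/CP arrays below all TC-71 samples, at -0.25. KDM5B had the lowest, at -0.58 ± 0.29. Centring each array on its median moved the median of all genes in TC/CP to -0.10, and 24 members were then lower and 23 higher, with a median of -0.00289. The signs of KDM2B, KDM3B, SUV39H2, HDAC8, HDAC9 and HDAC11 in TC/CP turned with it. In the lines in common the split became 35 lower and 12 higher on that scale. The 3 comparisons share the TC-71 samples and are therefore not independent of one another.

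**Figure D4:**
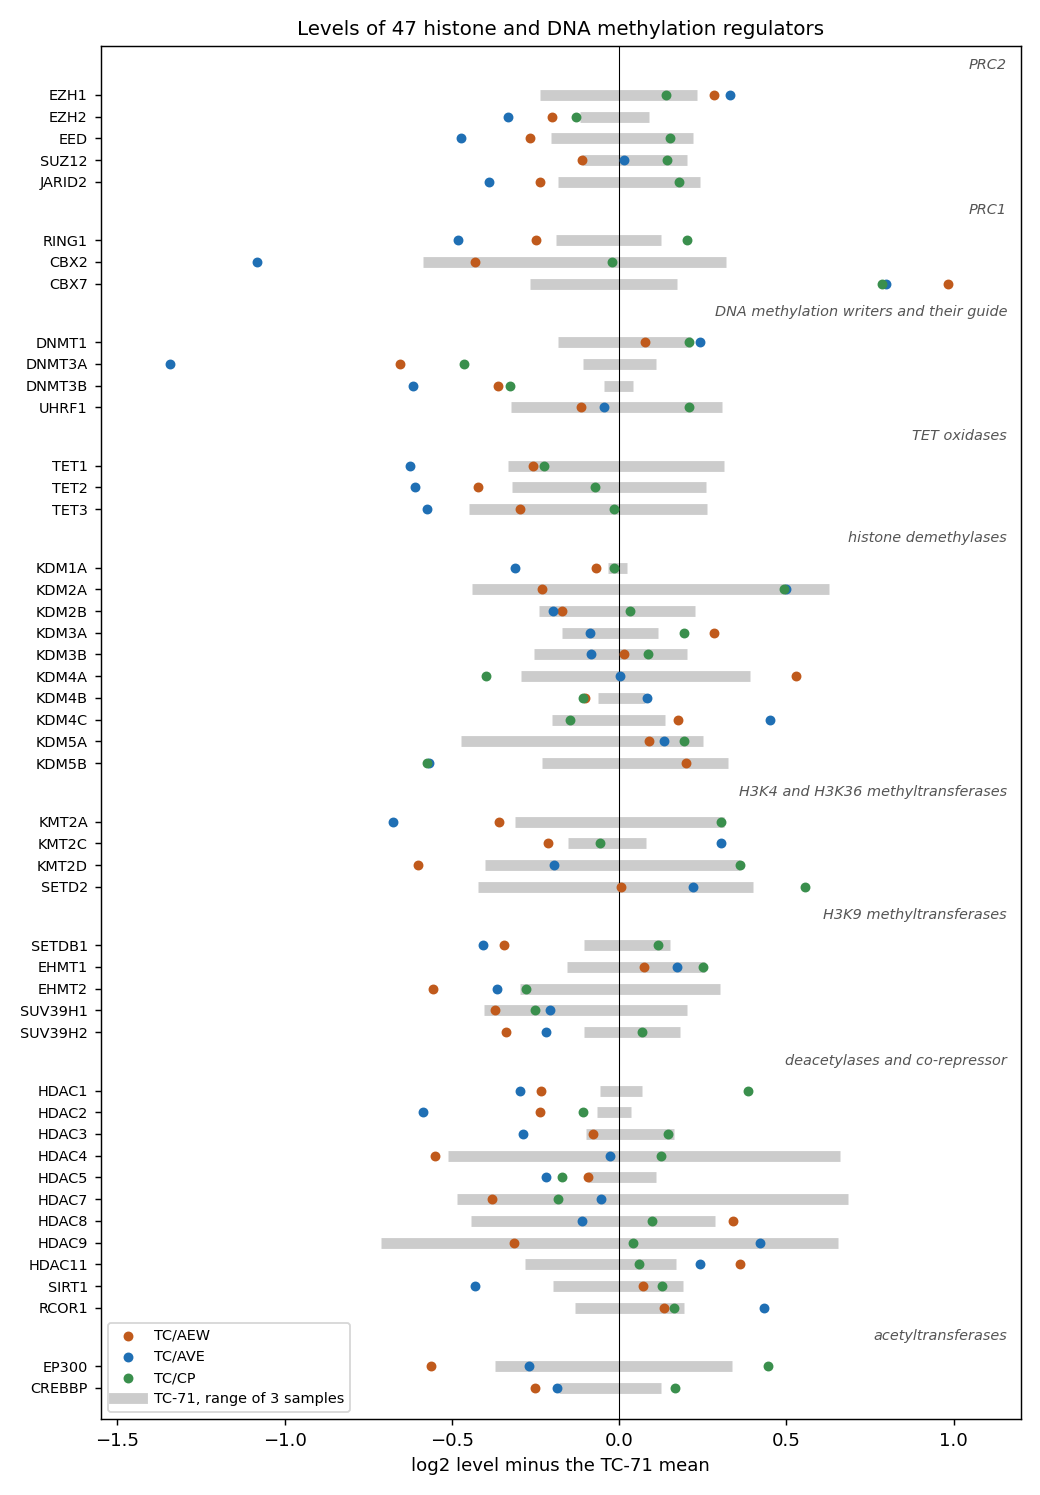
Log2 level minus the TC-71 mean (horizontal axis) of 47 regulators grouped by role, with 1 dot for the mean of each line and a grey bar for the range of the 3 TC-71 samples. DNMT3A, DNMT3B and HDAC2 lie left of the bar and CBX7 right of it in all 3 lines, and TC/CP is the highest of the lines in 30 members.

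Many members were highest in TC-71 sample 3 among TC-71, and in TC/CP among the lines, which share an array set. TC-71 sample 3 was the highest of the TC-71 samples for 31 of 47 members (66%, against 31.8% of all genes) and the lowest for 1 (2.13%, against 17.7%). TC/CP, in the same set, was the highest of the lines for 30 of 47 members (63.8%, against 37.1% of all genes). The median of TC-71 sample 3 minus TC-71 sample 2 was 0.20 over the members and 0.04 over all genes. Each set holds 1 TC-71 sample and TC/CP is the only line in its set, so set, sample and line cannot be told apart. Values within sets, chosen after seeing the data, follow.

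Each line was also set against the TC-71 sample of its own array set, as values with no test, since 1 TC-71 sample then served each line. These values also reflect the choice of that single sample. Both arrays of TC/AEW lay below TC-71 sample 2 for 26 members (55.3%, against 36.4% of all genes), and those of TC/AVE for 28 (59.6%, against 39.9%). Both arrays of TC/CP lay below TC-71 sample 3 for 32 members (68.1%, against 43.4%). The median differences were -0.06 for TC/AEW (all genes 0.02), -0.14 for TC/AVE (all genes 0.02) and -0.07 for TC/CP (all genes -0.02). The median of TC/CP thus changed sign from 0.10 with the choice of TC-71 sample.

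For 16 members (34%, against 15% of all genes) both arrays of each line lay below the TC-71 sample of their set. They were EZH2, EED, JARID2, DNMT3A, DNMT3B, TET1, TET2, TET3, KDM1A, KDM3B, KDM5A, KDM5B, EHMT2, SUV39H2, HDAC2 and HDAC9. CBX7 was the only member above in every line (2.13%, against 14.1% of all genes), by 0.81 in TC/AEW, 0.63 in TC/AVE and 0.69 in TC/CP. In the same order of lines DNMT3A lay at -0.55, -1.23 and -0.57 within sets, and DNMT3B at -0.32, -0.57 and -0.33. The TET oxidases were further apart here than against all TC-71 samples: TET1 at -0.57, -0.94 and -0.24, TET2 at -0.48, -0.67 and -0.33, and TET3 at -0.48, -0.76 and -0.28. With the set as a block, no member passed, with adjusted p = 0.309 for CBX7, 0.395 for TET2 and 0.439 for DNMT3A.

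**Figure D5:**
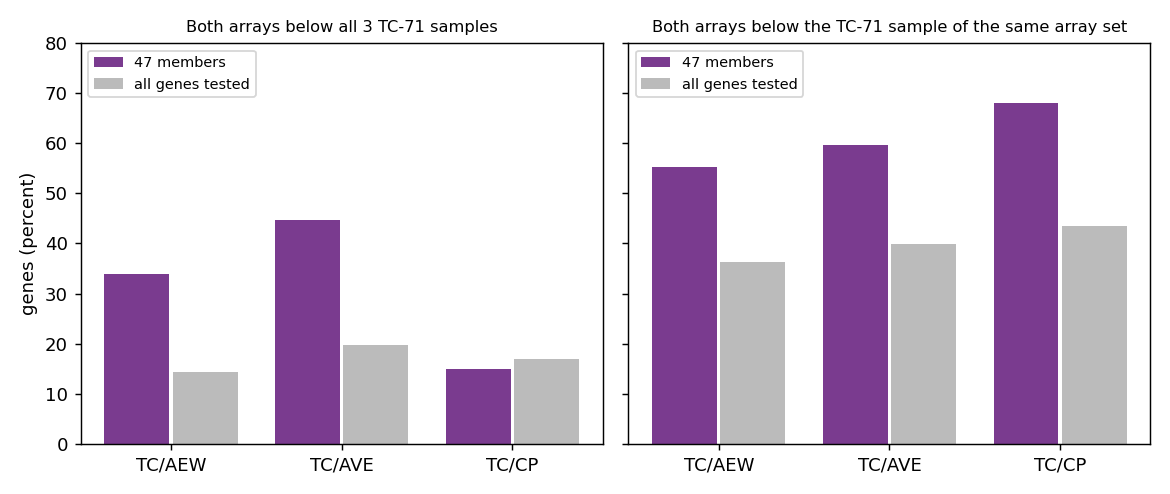
Share of genes in percent (vertical axis) with both arrays of a line below all 3 TC-71 samples (left) or below the TC-71 sample of the same array set (right), for the 47 members (purple) and all 14181 genes (grey). The members' share exceeds that of all genes in TC/AEW and TC/AVE on both sides, while TC/CP stands at 14.9% against 17% on the left and at 68.1% against 43.4% on the right.

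Differences between the lines themselves ask whether the agents left different regulator levels. TC/AEW, selected with the kinase inhibitor, was set against the average of TC/AVE and TC/CP, and no member passed (0% of all genes). None had an unadjusted p under 0.05 either, against 1.85% of all genes. KDM5B was highest on the inhibitor side, at 8.99 in TC/AEW against 8.22 and 8.21 in TC/AVE and TC/CP, a difference of 0.77 ± 0.31 (95% interval -0.03 to 1.57, adjusted p = 1.00). All 3 kept KDM5B probe sets were higher in TC/AEW than in either antibody-selected line. KDM4A was next at 0.73 ± 0.35. Its other kept probe set lay nearer together, at 0.01 from TC-71 in TC/AEW, -0.11 in TC/AVE and -0.29 in TC/CP. On the other side lay KDM2A at -0.73 ± 0.48, KMT2D at -0.68 ± 0.37 and EP300 at -0.65 ± 0.35. The array sets cross this comparison, since TC/AEW and TC/AVE share a set that TC/CP does not.

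TC/AVE against TC/CP compared the antibodies, whose concentrations cannot be matched and which lie in different array sets, so that antibody and set cannot be told apart. No member passed (0% of all genes), and 33 of 47 had a lower mean in TC/AVE, against 50.3% of all genes. DNMT3A (-0.88 ± 0.27), HDAC1 (-0.68 ± 0.25) and KMT2A (-0.98 ± 0.37) had unadjusted p-values under 0.05, against 5.75% of all genes. CBX2 differed 2-fold (-1.06 ± 0.52, 2.09-fold lower, adjusted p = 0.953), against 4.75% of all genes. RING1 at -0.68 ± 0.29 and EP300 at -0.71 ± 0.40 followed, and KDM4C was highest at 0.60 ± 0.29. The 2-fold difference of CBX2 was seen on its brightest probe set only. From TC-71, TC/AVE and TC/CP lay at -0.37 and -0.33, 0.46 and 0.29, and -0.02 and -0.12 on the other kept CBX2 probe sets.

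TC/AEW and TC/AVE lie in the same array set, so the set does not separate them. Of the 47 members 26 were higher in TC/AEW, against 51.4% of all genes, and none passed (0% of all genes). DNMT3A was 7.88 in TC/AEW against 7.19 in TC/AVE, a difference of 0.69 ± 0.27 (1.61-fold higher, adjusted p = 1.00), and was the 1 member with an unadjusted p under 0.05, against 2.73% of all genes. All 3 TET oxidases (0.19 to 0.37) and all 3 tested PRC1 subunits (0.18 to 0.65) had higher means in TC/AEW. KDM5B (0.77 ± 0.36) had the highest difference, and HDAC9 (-0.74 ± 0.66) and KDM2A (-0.73 ± 0.56) the lowest. On another kept HDAC9 probe set both lines lay below all TC-71 samples, TC/AEW at -0.54 and TC/AVE at -0.55. The HDAC9 difference thus depended on the probe set.

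The readings were steady within lines. The median gap between the 2 arrays of a line was 0.07 over the members, while the median SD over the TC-71 samples was 0.23, near the 0.22 of all genes. For 7 members the TC-71 SD exceeded 0.4. Of the 135 single-symbol probe sets of the members 114 were kept, 33 members had at least 2. In 18 of these 33 another kept probe set had the opposite sign in the lines in common, and in 15 to 18 in the single lines. None had 2 probe sets on opposite sides by 0.5 or more in the same comparison.

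Partners and targets of the same pathways were read from lists beside the members, and in none of them did a gene pass in any comparison. Of 7 PRC2 partners 4 had a higher mean in the lines in common, with a median of 0.11. MTF2, which targets PRC2 to CG-rich DNA, stood at 10.57 in TC/AEW, 10.37 in TC/AVE and 11.48 in TC/CP against 10.37 ± 0.12 in TC-71 (TC/CP adjusted p = 0.514), and PHF19, a related factor, differed by -0.16. Of 16 PRC1 partners and H2A deubiquitinase genes 10 were lower. PHC3, a PRC1 subunit, averaged 8.98, 9.57 and 9.39 in the lines and 8.65 ± 0.08 in TC-71 (0.67 ± 0.17, adjusted p = 0.369), and ASXL1, a deubiquitinase cofactor, 8.63, 8.72 and 8.72 against 9.22 ± 0.27 (-0.53 ± 0.16, adjusted p = 0.441).

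Of 10 heterochromatin protein 1 genes and lysine 9 partners, 6 were lower in the lines in common, with a median of -0.11. In TC/AEW 7 were lower, in TC/AVE 8 and in TC/CP 5. CBX5, which encodes heterochromatin protein 1 alpha, averaged 10.76 in TC/AEW, 10.50 in TC/AVE and 10.62 in TC/CP against 11.23 ± 0.11 in TC-71, a difference of -0.61 ± 0.13 (adjusted p = 0.297). TRIM28, a co-repressor that recruits SETDB1, differed by -0.40 ± 0.25. Of 13 DNA methylation readers and partners 6 were higher and 7 lower in the lines in common. GADD45A, a stress gene tied to DNA demethylation, differed by 0.73 ± 0.27, and MBD3, a subunit of the NuRD co-repressor, by -0.67 ± 0.27.

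Of 27 other lysine methyltransferases and COMPASS subunits 17 were lower, among them SMYD2 (-0.63 ± 0.21) and HCFC1 (-0.47 ± 0.31). Of 14 other demethylases 8 were lower, with JMJD6 at 0.69 ± 0.29 and KDM7A at -0.54 ± 0.22. Of 28 other deacetylase and co-repressor genes 18 were lower, with MTA2 at -0.44 ± 0.26 and CHD4, the NuRD remodeller, at -0.41 ± 0.16. Of 20 other acetyltransferases and acetyl readers 10 were lower, with BRPF3 at -0.58 ± 0.39 and KAT2B at 0.58 ± 0.31.

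Genes known as polycomb targets showed no common direction. Of 23 developmental genes 12 were higher and 11 lower (median 0.02), and GATA4 (-0.52 ± 0.24) and LHX9 (0.46 ± 0.71) differed most. Of 4 genes reported to rise after EZH2 silencing in Ewing cells 1, EMP1, had a higher mean in the lines in common. Only its TC/AVE and TC/CP arrays reached the filter level of 5, so its direction was largely set by the filter. Its TC/AEW arrays lay within the TC-71 range. EMP1, a membrane protein gene, read 9.68 and 9.62 in TC/AVE, 3.91 and 4.11 in TC/AEW and 5.22 and 5.27 in TC/CP, against 3.06, 4.49 and 3.94 in TC-71. It was thus near background outside TC/AVE, where its adjusted p was 0.168. GAP43, a neuronal growth gene of the same list, lay at 6.81 in TC/AEW, 8.33 in TC/AVE and 9.41 in TC/CP against 8.88 ± 0.37 in TC-71.

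Of 21 germline genes known to be held silent by DNA methylation 2 were bright enough to test. CTCFL differed by 0.45 ± 0.18 (adjusted p = 0.580) and SSX1 by 0.47 ± 0.24 (adjusted p = 0.674). Every line mean was above the TC-71 mean for both, as for 25% of all genes, and neither passed. The filter could be met by line arrays alone, so it favours genes that are higher in the lines. Proliferation genes, with which EZH2, DNMT1 and UHRF1 are known to rise and fall, had medians of -0.06 in TC/AEW, -0.07 in TC/AVE and -0.03 in TC/CP, and 17 of 28 were lower in the lines in common. MCM5 (-0.47 ± 0.28) and MCM3 (-0.43 ± 0.22), helicase subunits, differed most, and their part in the members' levels was not tested.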

How the data were processed

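RNA levels were measured on 9 arrays, 3 of TC-71 and 2 of each of 3 resistant lines. The deposited values were log2 levels per probe set, made by the authors with RMA and affy, per the submitters' processing notes. Their versions are not given in the sources used here. The 62 control probe sets were left out. Of the remaining 54613, 41091 carried 1 gene symbol, 1801 several and 11721 none, and 41037 of the single-symbol ones matched a RefSeq gene identifier on GRCh38.p14. Probe sets that reached 5 on 2 or more arrays were kept. Each gene was represented by its brightest kept probe set, and for genes outside the list the _x_at probe sets were used only where there was no other. The 2 arrays of a line were averaged, giving 6 samples.

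limma 3.58.1 (R 4.3.3) gave two-sided tests, adjusted by Benjamini-Hochberg over all 14181 genes, and 0.05 was the threshold. The lines in common were compared in a fit with 2 groups (4 residual and 3.06 prior degrees of freedom). The other comparisons came from a fit with 4 groups (2 residual and 3.00 prior). Errors are moderated standard errors, and the small number of arrays limits the precision. The contrasts were tested on simulated data. Alternatives changed the probe set, filter, scaling, prior, array averaging, array set and samples. Named members were those outside TC-71 in every line array, the 6 highest and 6 lowest in the lines in common, the 5 highest and 5 lowest in each other comparison, and a fixed list of core enzymes. In each related list the 2 genes with the largest absolute difference in the lines in common were named. The remaining members were named to account for all 47. The members and lists were chosen with earlier results of these data known. The technical replicate numbers were checked and do not pair samples across lines. Sequences were read from RefSeq.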

Additional observations from a re-analysis of the deposited data

How the results depend on the processing

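Under every alternative that kept the 6 samples, and without any one TC-71 sample or line, 0 members passed the threshold in any of the 7 comparisons. With the 9 arrays counted as samples, which treats technical replicates as biological ones, members passed as follows: 1 for the lines in common (1.69% of all genes), 2 for TC/AEW (3.86%), 9 for TC/AVE (13.1%) and 2 for TC/CP (7.26%). Between lines 1 passed for TC/AEW against both antibody lines (2.08%), 11 for TC/AVE against TC/CP (13.4%) and 1 for TC/AEW against TC/AVE (4.1%). Adding the replicate block to that fit gave 0, 1, 6, 3, 1, 10 and 2 members in the same order, against 0.275%, 2.47%, 8.6%, 8.76%, 1.68%, 12.7% and 3.19% of all genes. Same-numbered samples correlated at -0.145 to 0.201 over genes, so the numbers do not pair them.

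Leaving out a TC-71 sample gave 3 to 8 members with every array below TC-71 and 1 to 4 above it in the lines in common, 16 to 25 and 5 to 8 in TC/AEW, 21 to 26 and 6 to 13 in TC/AVE, and 8 to 14 and 6 to 21 in TC/CP. The shares of all genes were then 6.37% to 11.1% below and 7.07% to 11.6% above in common, 17.4% to 26.4% and 20.6% to 26% in TC/AEW, 22.6% to 31.1% and 25.5% to 27.9% in TC/AVE, and 20.7% to 28.1% and 26% to 29.5% in TC/CP. Against the TC-71 sample of the own array set alone, 26 members lay below and 13 above in TC/AEW (36.4% and 41.1% of all genes), 28 and 19 in TC/AVE (39.9% and 45.2%) and 32 and 8 in TC/CP (43.4% and 37.8%). The median of the members in TC/CP turned to -0.0458 with the mean over probe sets, to -0.00289 with centred arrays and to -0.0704 in its own set. That of TC/AEW against TC/AVE turned to -0.0494 without _x_at and _s_at probe sets.

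HDAC11 turned to -0.0131 in the lines in common with the mean over probe sets and to -0.111 within the set of TC/CP, where DNMT1 (-0.00519) and RCOR1 (-0.0282) also turned, as did KDM2A in TC/CP (-0.135). The cause was not tested. Over all genes, the 3 calls in the lines in common became 6 with the mean over probe sets or a filter at 6, 5 without _x_at and _s_at probe sets or with a robust prior, 7 with repeated quantile normalization, 8 with centring, 240 with 9 arrays and 39 with the block, and 0 without a filter, with the set as a block or without any one sample or line. In TC/AVE the 0 calls became 6 with the mean over probe sets, 5 with quantile normalization, 3 with the robust prior, 34 with centring, 1857 with 9 arrays and 1220 with the block, and in TC/CP 4 with centring. CBX7 lay close to background and rests on 1 probe set.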
